A study of Homo sapiens with 6 samples.

Results

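YAP1, WWTR1 (which encodes TAZ), TEAD1, TEAD4, CCN1, CCN2, AMOTL1, AMOTL2, AJUBA and AXL were followed in an RNA-seq study of the breast cancer cell line MDA-MB-468, a human line without hormone receptors or HER2 amplification, and of its paclitaxel-exposed derivative MDA-MB-468-PR. These 10 genes were chosen by name as parts or targets of one signalling pathway. All 10 were found among the 28395 Entrez gene IDs of the count table, and all 10 were among the 13950 genes that passed the filter on low counts. The 3 resistant libraries came from MDA-MB-468-PR, which was made from MDA-MB-468 by 2 months in paclitaxel, a microtubule-stabilising drug, at 3 to 4.5 nM. The 3 control libraries came from the parental MDA-MB-468. The labels give both lines as untreated, in the same medium with 10% serum. MDA-MB-468-PR is a single derived line, so effects of the drug and other changes during its derivation cannot be told apart. The labels give a batch of 2020 to replicate 1 of each group and a batch of 2021 to replicates 2 and 3. Whether the replicates are separate cultures is not labelled, and the p-values cover only the variation among these libraries, part of which may be technical.

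YAP and TAZ are paralogous coactivators without a DNA-binding domain of their own. In the nucleus they bind the TEAD transcription factors, which recognise the letters GGAATG, and they raise the transcription of genes for secreted matricellular proteins and cytoskeletal regulators. The Hippo kinases MST and LATS phosphorylate YAP and TAZ and so hold them in the cytoplasm. Much of the control over YAP and TAZ is by phosphorylation, location and protein stability, none of which is measured by RNA counts. In breast epithelium the pathway is known for its response to cell density, stiffness and cell shape.

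The promoter of CCN2, a secreted matricellular protein used widely as a readout of YAP activity, is shown because its RNA varied most among the 10 genes. That of ANKRD1, another widely used readout, is shown because its RNA rose in the resistant line, and a short stretch of the YAP1 promoter for comparison. Sequences are from RefSeq, build GRCh38.p14, 5′ to 3′ on the strand of the gene. Capitals mark GGAATG on either strand and TGANTCA on either strand. TGANTCA was searched as a loose form of the AP-1 motif, with any base at N. The CCN2 stretch is chr6:131951443-131951572 on the minus strand and lies upstream of the start of transcription, from which positions are counted. The ANKRD1 stretch is chr10:90921188-90921337 on the minus strand. The YAP1 stretch is chr11:102110267-102110306 on the plus strand.
CCN2: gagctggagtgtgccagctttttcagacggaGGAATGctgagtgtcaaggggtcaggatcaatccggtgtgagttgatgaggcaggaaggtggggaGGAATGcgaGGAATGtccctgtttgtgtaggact
ANKRD1: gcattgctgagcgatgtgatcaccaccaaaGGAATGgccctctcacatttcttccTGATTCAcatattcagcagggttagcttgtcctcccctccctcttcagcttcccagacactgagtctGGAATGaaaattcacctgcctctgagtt
YAP1: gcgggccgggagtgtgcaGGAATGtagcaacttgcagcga

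The windows searched ran from 250 bases before to 50 bases after each start. CCN2 held GGAATG 3 times, at -169, -104 and -95. ANKRD1 held it at -220 and -128, with a match to TGANTCA at -195 that reads TGATTCA. Of 35116 windows in the table, 14.03% held GGAATG at least once, 1.37% at least 2 times and 0.128% at least 3 times, and 7.71% held TGANTCA. Windows were given for 7 of the 10 genes, not for CCN1, TEAD1 and TEAD4. Of these 7 genes, 5 had GGAATG in at least 1 of their 11 windows: YAP1, CCN2, AMOTL2, AJUBA and AXL. Counted by window, as for the table, 5 of the 11 held it. AMOTL2, AJUBA and AXL each also had a window without it. No TGANTCA was found in the 11 windows. Of the 18 further targets listed below, 14 had a window, and 6 of these held GGAATG. Among the other targets that rose, NT5E and IGFBP3 held neither motif, LATS2 held 1 GGAATG and DOCK5 had no window. These are letter matches and show neither binding nor its absence.

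None of the 10 genes passed the test between the resistant and the control line, where 11.7% of all tested genes did (quasi-likelihood test of edgeR fitted with batch and group, at a Benjamini-Hochberg adjusted p below 0.05); 6.23% were higher and 5.48% lower in resistant cells. The adjusted p of the 10 genes lay between 0.0851 for TEAD1 and 0.754 for CCN2. An unadjusted p under 0.05 was found for 1 of the 10, TEAD1, and for 26.4% of all tested genes. DESeq2 and limma voom also called 0 of the 10. The resistant and control libraries did not overlap for 2 of the 10, TEAD1 and AJUBA, where 20.9% of all tested genes did not overlap. The median log2 difference was 0.15 over the 10 genes and -0.0039 over all tested genes, and 6 of the 10 were above 0 against 49.4% of all genes. For 7 of the 10 genes the 95% interval of the difference lay inside a 2-fold change in both directions, as it did for 79.2% of all tested genes. The remaining 3 were CCN1, CCN2 and AXL, for which these libraries do not exclude a 2-fold difference.

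**Figure D1:**
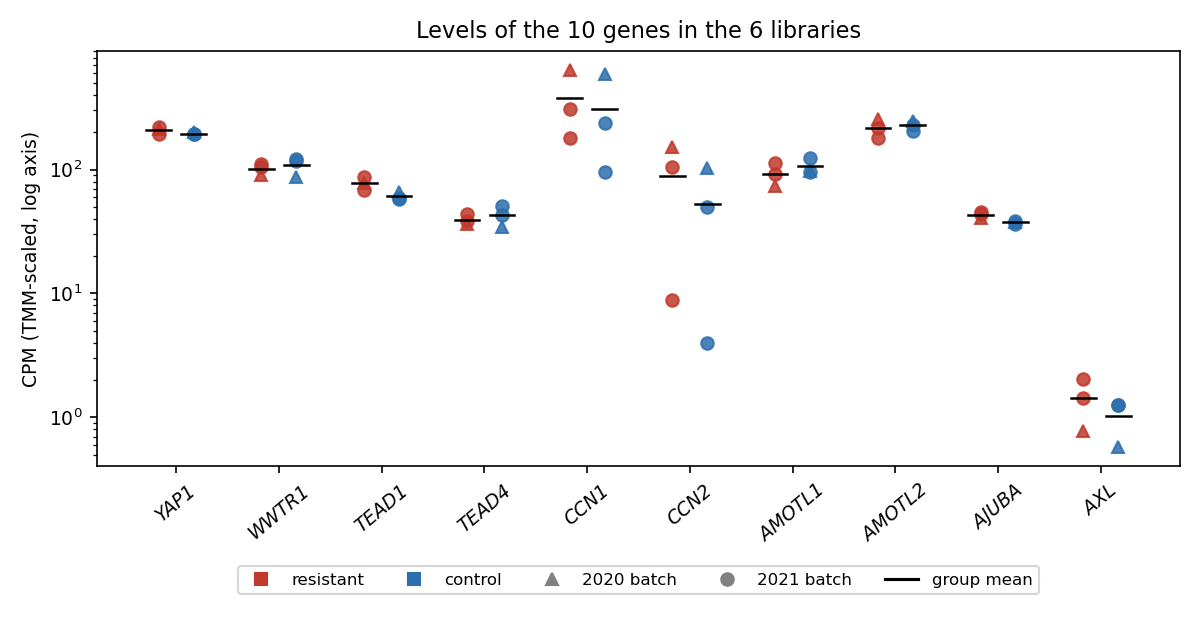
Level of each of the 10 genes in CPM on a log axis, with resistant libraries in red on the left and control libraries in blue on the right of each pair. Triangles are the 2020 and circles the 2021 libraries, and bars are group means (n = 3 each). The groups overlap except for TEAD1 and AJUBA, and CCN2 spans 151 to 8.82 CPM in resistant and 104 to 4.0 CPM in control libraries.

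The coactivators were nearly level between the lines. YAP1 (Entrez 10413, chromosome 11, 102110447 to 102233424, GRCh38) was at 211, 193 and 220 CPM in resistant libraries 1 to 3, against 200, 193 and 192 CPM in control libraries 1 to 3. Its highest and lowest library within a group differed 1.14-fold in resistant and 1.04-fold in control cells, and the groups overlapped. The fitted log2 difference was 0.094 ± 0.10 (SE, adjusted p = 0.604), with a 95% interval of 0.909-fold to 1.25-fold. WWTR1 (chromosome 3, 149517235 to 149724788) was at 90.1, 104 and 111 CPM in resistant libraries, against 86.6, 116 and 121 CPM in control libraries. In both groups the 2020 library was the lowest. The log2 difference of WWTR1 was -0.078 ± 0.10 (SE, adjusted p = 0.654), between 0.814-fold and 1.10-fold. On a scale of CPM per kilobase of exon, YAP1 made up 66.1% ± 2.63 of the sum of YAP1 and WWTR1 in resistant and 63.4% ± 4.72 in control libraries (SD, n = 3 each).

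Among the transcription factors, TEAD1 came nearest to the threshold. TEAD1 (chromosome 11, 12674421 to 12944737) was at 77.6, 67.9 and 87.8 CPM in resistant libraries, against 66.3, 57.7 and 58.7 CPM in control libraries. Every resistant library was above every control library, though resistant replicate 2 exceeded control replicate 1 by little. The fitted difference was 1.28-fold (log2 0.36 ± 0.12 SE, adjusted p = 0.0851), 0.23 in 2020 and 0.41 in 2021 on the log2 scale. TEAD1 passed when genes were not filtered on low counts (adjusted p = 0.0356, over a range of 0.0356 to 0.326 for all alternatives). TEAD4 (chromosome 12, 2959397 to 3040676) was at 36.1, 38.5 and 43.8 CPM in resistant libraries, against 34.7, 50.8 and 42.6 CPM in control libraries. The groups overlapped, and the log2 difference of -0.10 ± 0.11 (SE, adjusted p = 0.610) lay between 0.777-fold and 1.11-fold.

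The paralogues TEAD2 and TEAD3 complete the family. TEAD3 fell to 39.4, 51.2 and 52.2 CPM in resistant libraries, against 66.3, 90.2 and 80.0 CPM in control libraries, with no overlap. The difference was 1.66-fold (log2 -0.73 ± 0.09 SE, adjusted p = 0.00251). It was -0.75 in 2020 and -0.72 in 2021, and TEAD3 kept an adjusted p of 0.0259 or less without any 1 library. TEAD2 was at 155 ± 25.0 CPM in resistant and 164 ± 28.6 CPM in control libraries (SD, n = 3 each; adjusted p = 0.677). Per kilobase of exon, TEAD2 was the most abundant TEAD, with 55.6% ± 2.7 of TEAD RNA in resistant and 51.9% ± 1.97 in control libraries. TEAD3 held 15.0% ± 0.36 in resistant and 22.1% ± 0.61 in control libraries, without overlap. TEAD4 held 21.2% ± 1.61 and TEAD1 8.17% ± 1.40 in resistant libraries, against 20.2% ± 1.07 and 5.76% ± 1.43 in control libraries. Per kilobase of coding sequence the TEAD1 share was larger, at 24.7% in resistant and 18.2% in control libraries, and the TEAD3 share was 14.6% in resistant and 22.4% in control libraries.

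**Figure D2:**
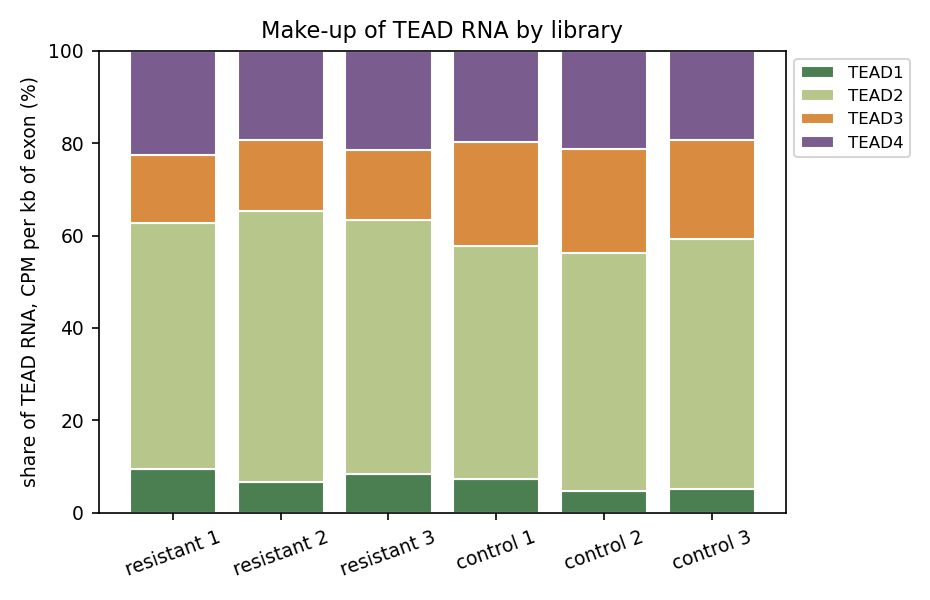
Share of TEAD1 to TEAD4 in the summed TEAD RNA of each library, in percent of CPM per kilobase of exon, resistant libraries on the left and control libraries on the right. The TEAD3 segment is 14.6% to 15.3% in resistant and 21.4% to 22.5% in control libraries.

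The secreted targets CCN1 and CCN2 varied far more between libraries of 1 line than between the lines. CCN1 (CYR61, a matricellular ligand of integrins; chromosome 1, 85580761 to 85583950) was at 639.5, 309 and 179 CPM in resistant libraries, against 594, 94.8 and 237 CPM in control libraries. CCN2 (CTGF, a cysteine-rich protein that promotes matrix deposition; chromosome 6, 131948176 to 131951372) was at 151, 106 and 8.82 CPM in resistant libraries, against 104, 4.0 and 49.8 CPM in control libraries. In both groups the 2020 library was the highest for both genes, and resistant replicate 3 and control replicate 2 were the lowest of their groups for both. For CCN2 the highest library exceeded the lowest 17.1-fold within resistant and 25.9-fold within control cells, and for CCN1 3.58-fold and 6.27-fold. The counts behind the lowest values were 849 in resistant replicate 3 and 224 in control replicate 2, so counting error is small beside this spread.

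The fitted log2 difference of CCN2 was 0.90 ± 1.47 (SE, adjusted p = 0.754), with a 95% interval from 0.0851-fold to 40.9-fold. That of CCN1 was 0.41 ± 0.39 (SE, adjusted p = 0.564), from 0.682-fold to 2.57-fold. The CCN2 call depended on how libraries were paired. With a replicate block whose numbers were crossed within 2021 (the crossed block: resistant 2 with control 3, resistant 3 with control 2), an alternative chosen after seeing the data, CCN2 passed at a log2 difference of 0.91 (adjusted p = 0.00297, over a range of 0.00297 to 0.910 for all alternatives). With the block by the labelled numbers it did not pass (adjusted p = 0.894). Leaving out resistant replicate 2 turned its log2 difference to -0.62, and leaving out control replicate 3 moved it to 2.21. For CCN1 the difference moved between 0.066 without control replicate 2 and 0.80 without control replicate 3. The spread left after batch and group, as an SD of log2 CPM, was 2.09 for CCN2 and 0.65 for CCN1. CCN2 stood at percentile 99.96 and CCN1 at 96.3 of all tested genes in this spread, YAP1 at 12.9 and AJUBA at 10.5.

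**Figure D3:**
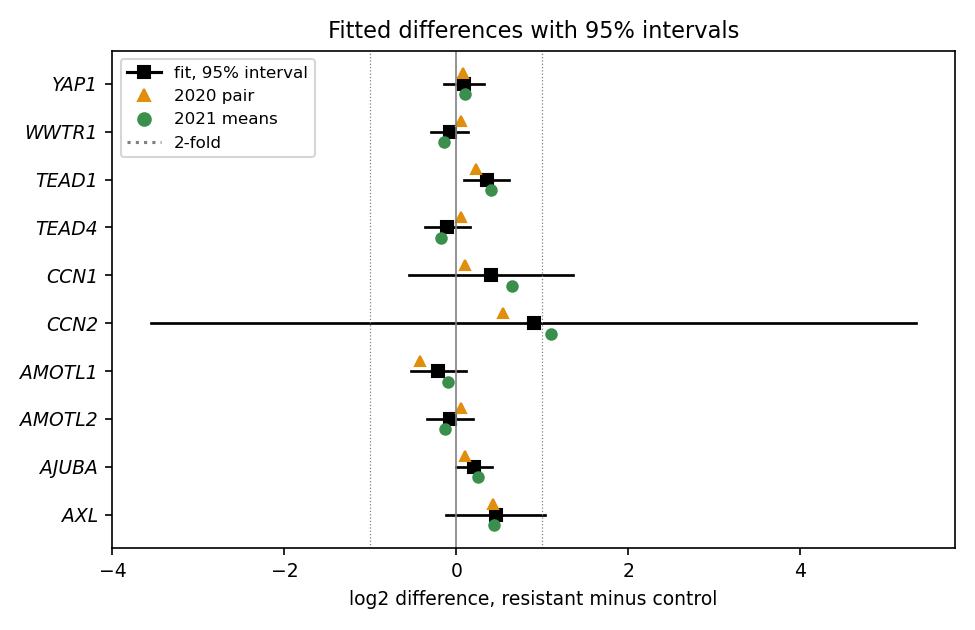
Fitted log2 difference of each gene, resistant minus control, with its 95% interval (squares and lines), and the difference within the 2020 pair (triangles) and between the 2021 group means (circles). Dotted lines mark a 2-fold difference. 7 of the 10 intervals lie inside them, whereas that of CCN2 runs from -3.55 to 5.36.

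The genes with the most similar course over the 6 libraries were found by the root mean square difference of log2 CPM, each gene centred on its own mean, among 10507 others averaging 5 CPM or more. For CCN2 the nearest was DUSP1, a phosphatase that inactivates MAP kinases, at a root mean square difference of 0.41. DUSP1 was at 105, 46.8 and 3.76 CPM in resistant libraries, against 85.4, 3.5 and 36.8 CPM in control libraries. The second was NR4A1, an orphan nuclear receptor, at 0.66, with 280 CPM, 77.8 CPM and 15.6 CPM in resistant libraries, against 286, 10.0 and 54.8 CPM in control libraries. DUSP1 was the only gene within 0.5 of CCN2. Both genes were lowest in the libraries in which CCN2 was lowest. For CCN1 the nearest were CCNL1, a cyclin linked to splicing, at 0.17 and the kinase gene SGK1 at 0.23, the only 2 genes within 0.25, where YAP1 had 5969. Such counts depend on how strongly a gene varies, because a flat gene lies near every other flat gene. By this measure CCN1 and CCN2 were 1.15 apart. CCNL1 was at 246, 134 and 88.5 CPM in resistant libraries, against 299, 47.4 and 131 CPM in control libraries. SGK1 was at 56.3, 24.3 and 11.9 CPM in resistant libraries, against 32.9, 7.49 and 14.8 CPM in control libraries.

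**Figure D4:**
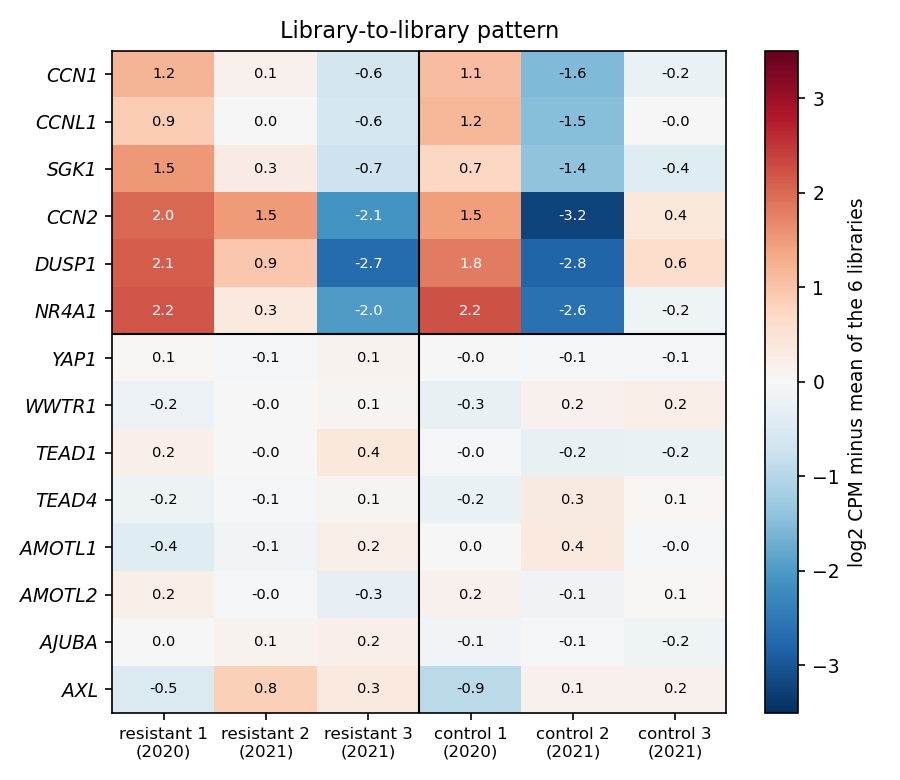
Log2 CPM of each gene in each library minus the mean of that gene over the 6 libraries, with resistant libraries on the left. The upper block holds CCN1 and CCN2, each followed by its 2 nearest genes, and the lower block the other 8 genes. CCN2 and DUSP1 are lowest in control replicate 2 and resistant replicate 3, while YAP1 lies between -0.069 and 0.13 of its mean.

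In the endothelial marker list the receptor gene KDR was lowest of each group in the same libraries as CCN2, and the other genes of the list were not. VWF was highest of its group in those libraries, at 1.70 CPM in resistant replicate 3 and 1.84 CPM in control replicate 2. PECAM1 and CDH5 were lowest of the resistant libraries in replicate 3. Their counts in resistant libraries were few, at 18, 18 and 21 for PECAM1 and 67, 61 and 80 for CDH5. The order of resistant replicates 2 and 3 may thus be counting error. In control libraries PECAM1 was highest in replicate 2 (0.769 CPM, 43 counts) and CDH5 lowest in replicate 3 (0.118 CPM, 8 counts). KDR was at 39.4, 63.8 and 12.9 CPM in resistant libraries, against 19.9, 6.15 and 23.6 CPM in control libraries. The list of 4 summed to 15.6 to 66.0 CPM in resistant and 9.28 to 25.7 CPM in control libraries, most of it KDR. None of its 4 genes passed the test, where 11.7% of all tested genes did. PECAM1 was at 0.218 to 0.485 CPM in resistant and 0.273 to 0.769 CPM in control libraries. The part of other cells in the values of CCN2 was not tested.

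The scaffold proteins of the angiomotin family bind YAP and TAZ and keep them at junctions, and their genes are in part targets of YAP themselves. AMOTL1 (chromosome 11, 94706460 to 94876748) was at 73.2, 91.7 and 113 CPM in resistant libraries, against 97.98, 125 and 95.003 CPM in control libraries. Its log2 difference was -0.21 ± 0.14 (SE, adjusted p = 0.383), -0.42 in 2020 and -0.10 in 2021, and its groups overlapped. AMOTL2 (chromosome 3, 134355345 to 134375417) was at 256, 216 and 181 CPM in resistant libraries, against 247, 204 and 229 CPM in control libraries. It also overlapped, with a log2 difference of -0.069 ± 0.12 (SE, adjusted p = 0.748) and a 95% interval of 0.793-fold to 1.15-fold. Its direction turned without resistant replicate 3, at a log2 difference of 0.0093. The third family member, AMOT, was at 180 ± 52.1 CPM in resistant and 252 ± 56.1 CPM in control libraries (SD, n = 3 each) and did not pass (log2 -0.48 ± 0.18 SE, adjusted p = 0.128). With the crossed block AMOT passed (adjusted p = 0.00989), as it did when control replicate 3 was omitted (adjusted p = 0.0413), over a range of 0.00989 to 0.409 for all alternatives.

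AJUBA (chromosome 14, 22971177 to 22982551) encodes a LIM-domain scaffold that restrains LATS kinases. It was at 40.4, 43.7 and 45.6 CPM in resistant libraries, against 37.6, 38.7 and 36.1 CPM in control libraries. All resistant libraries were above all control libraries, by a fitted 1.15-fold (log2 0.21 ± 0.09 SE, adjusted p = 0.206), with a 95% interval of 0.994-fold to 1.34-fold.

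AXL (chromosome 19, 41219223 to 41261766) encodes a receptor tyrosine kinase for GAS6 that is a known YAP target and is often abundant in mesenchymal-like breast cancer lines. It was low in both lines, at 0.781, 2.06 and 1.43 CPM in resistant libraries, against 0.572, 1.25 and 1.27 CPM in control libraries. These values rest on 29, 137 and 138 counts in resistant and 23, 70 and 86 counts in control libraries. In both groups the 2020 library was the lowest, with log2 differences of -1.10 to the 2021 libraries in resistant and -1.10 in control cells. The fitted log2 difference was 0.46 ± 0.25 (SE, adjusted p = 0.289), 0.43 in 2020 and 0.44 in 2021. Of 5 TAM receptor and ligand genes, 4 could be tested and none passed, where 11.7% of all tested genes did. The most abundant of the 5, the ligand GAS6, was at 35.3 ± 5.12 CPM in resistant and 34.7 ± 11.8 CPM in control libraries (SD, n = 3 each; adjusted p = 0.890).

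Per kilobase of exon the mean over the 6 libraries ordered the genes from CCN1 at 149 through AMOTL2 at 46.5, YAP1 at 35.8, CCN2 at 30.1, TEAD4 at 22.8, WWTR1 at 19.5, AMOTL1 at 11.0, AJUBA at 8.45 and TEAD1 at 7.48 to AXL at 0.251 CPM per kilobase. Of the 9 neighbours in this order, 7 pairs had overlapping ranges. The ranges of WWTR1 and AMOTL1, and of TEAD1 and AXL, did not overlap. On this scale TEAD4 was above WWTR1 and AJUBA above TEAD1 within each of the 6 libraries, although their ranges over libraries overlapped. Both orders turned per kilobase of coding sequence. The means were then 87.4 for WWTR1 against 31.5 for TEAD4, and 52.1 for TEAD1 against 25.0 for AJUBA. Per kilobase of coding sequence YAP1 stood second and TEAD1 sixth, while CCN1 stayed first and AXL last. The capture probes target exomes, so neither length describes the captured fragments exactly.

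The rest of the pathway was read from lists of genes by role. Of 18 genes of the Hippo kinase cascade and its regulators, 17 were tested, of which 2 rose and 1 fell (17.6%, against 11.7% of all tested genes; median log2 difference 0.021). WWC3, a KIBRA-family scaffold that activates LATS, fell to 80.9, 66.3 and 80.3 CPM in resistant libraries, against 179, 149 and 145 CPM in control libraries. That is 2.07-fold without overlap (log2 -1.05 ± 0.11 SE, adjusted p = 0.00142). SAV1, the scaffold of the MST kinases, rose 1.33-fold to 69.1 ± 9.77 CPM in resistant libraries, against 51.7 ± 6.90 CPM in control libraries (SD, n = 3 each; adjusted p = 0.0328). The call of SAV1 ended without each library except control replicate 2 (adjusted p up to 0.173). The kinase gene LATS2, which is also a YAP target, rose 1.29-fold (log2 0.36 ± 0.09 SE, adjusted p = 0.0335). LATS2 was at 62.4, 34.4 and 35.9 CPM in resistant libraries, against 49.1, 27.5 and 26.8 CPM in control libraries, so that the difference shows within each batch. Its adjusted p was 0.0539 with the replicate number as a block and up to 0.164 without 1 library, control replicate 2 excepted.

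Among 10 tested of 12 further TEADs, vestigial-like cofactors and binding partners, 1 rose and 2 fell. That is 30.0%, against 11.7% of all tested genes, with a median log2 difference of 0.024. Besides TEAD3, VGLL1, a cofactor that binds TEADs in place of YAP, fell to 150, 149 and 165 CPM in resistant libraries, against 182, 281 and 235 CPM in control libraries. The groups did not overlap (1.49-fold, log2 -0.57 ± 0.13 SE, adjusted p = 0.0255), but without resistant replicate 2 or 3 VGLL1 did not pass (adjusted p = 0.131 and 0.120). RUNX1, a transcription factor that binds YAP, rose 1.5-fold (log2 0.58 ± 0.14 SE, adjusted p = 0.0322), by 0.19 in 2020 and 0.77 in 2021. RUNX1 was at 148, 53.2 and 65.8 CPM in resistant libraries, against 130, 35.2 and 34.2 CPM in control libraries. Its adjusted p was 0.0512 with the replicate block, and it lost its call without resistant replicate 2 or 3 or control replicate 2 (up to 0.126).

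**Figure D5:**
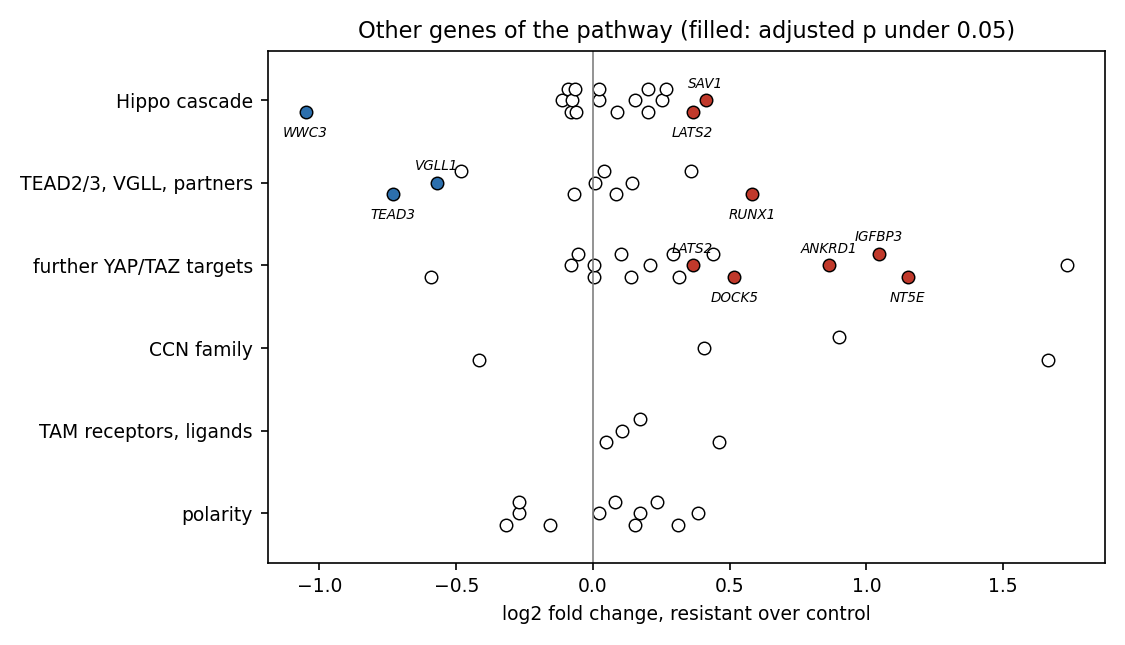
Log2 fold change, resistant over control, of the tested genes of 6 lists of pathway genes, 1 point per gene. Filled points passed the test (red higher, blue lower in resistant cells) and are named. The 5 filled points among the further YAP and TAZ targets lie between 0.36 and 1.15.

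Of 18 further direct YAP and TAZ targets, 17 were tested, of which 5 rose and 0 fell (29.4%, against 6.23% of all tested genes that rose). Their median log2 difference was 0.29, and 14 of 17 were above 0. The composition of this list was settled with earlier results of these data known, so it is no independent evidence of a direction. NT5E, the ectoenzyme CD73 that makes adenosine, was at 223, 192 and 209 CPM in resistant libraries, against 115, 97.0 and 72.1 CPM in control libraries, a 2.22-fold rise (adjusted p = 0.00223). IGFBP3, which binds insulin-like growth factors, rose 2.07-fold to 232, 167 and 120 CPM in resistant libraries, against 100.0, 87.9 and 59.5 CPM in control libraries (adjusted p = 0.00898). Its call ended without resistant replicate 1 (adjusted p = 0.0522). Both genes separated the lines without overlap.

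ANKRD1, a cardiac ankyrin repeat protein and the gene shown above with 2 GGAATG matches, was at 6.87, 6.56 and 6.90 CPM in resistant libraries, against 4.65, 2.65 and 4.03 CPM in control libraries. It rose 1.82-fold (log2 0.86 ± 0.20 SE, adjusted p = 0.0263), with 0.56 in 2020 and 1.03 in 2021. DOCK5, a guanine nucleotide exchange factor for Rac, rose 1.43-fold to 169 ± 11.6 CPM in resistant libraries, against 119 ± 16.6 CPM in control libraries (SD, n = 3 each; adjusted p = 0.0111). Both lost their calls without resistant replicate 2 or 3, with adjusted p up to 0.136 for ANKRD1 and 0.0675 for DOCK5. LATS2, described above, was the fifth member that rose.

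Of 6 genes of the CCN family 4 were tested and none passed, where 11.7% of all tested genes did. Of 12 polarity genes 11 were tested and none passed, against the same 11.7%. The most abundant of them, FAT1, a giant cadherin upstream of the Hippo kinases, was at 1901, 1755 and 2240 CPM in resistant libraries, against 1602, 1427 and 1490 CPM in control libraries. These do not overlap, but the log2 difference of 0.38 ± 0.14 (SE) did not pass (adjusted p = 0.128). FAT1 passed in DESeq2 (adjusted p = 0.0239, over a range of 0.0239 to 0.370 for all alternatives). FAT1 was also the gene nearest to TEAD1 in its course over the libraries, at a root mean square difference of 0.034. PRICKLE2 followed at 0.046, and 2888 genes lay within 0.25 of TEAD1, so this nearness is not particular to FAT1.

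Position on the chromosomes was described by the 5 tested genes on either side, where over all tested genes 6.23% rose and 5.48% fell. TEAD3 and its neighbours on chromosome 6 moved together: 10 of 10 neighbours were below 0, 7 of them fell, and their median log2 difference was -0.81. WWC3 on chromosome X had 9 of 10 neighbours below 0. Of the 10, 7 fell and 1 rose, with a median of -0.59 and a highest log2 difference of 2.16. Around VGLL1, also on chromosome X, 2 neighbours fell and 1 rose, with a median of -0.18. For NT5E, IGFBP3, ANKRD1, DOCK5, LATS2, SAV1 and RUNX1, which rose, the medians of the neighbours lay between -0.043 and 0.17. At most 2 neighbours of each of these genes rose and at most 1 fell. Around CCN2, 5 of 10 neighbours rose and none fell, with a median of 1.07. The gene just before CCN2, ENPP1, had a log2 difference of 1.01 and the gene just after it, MOXD1, of 3.36. Around YAP1, 2 of 10 neighbours rose, of which BIRC3, an inhibitor of apoptosis, is the next gene and had a log2 difference of 1.06. For the other 8 of the 10 genes followed, the median of the neighbours lay between -0.093 and 0.15.

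The libraries held 37889818, 63073979 and 93680129 counts in resistant replicates 1 to 3 and 41343499, 59171296 and 66475627 counts in control replicates 1 to 3. A count of 0 allows up to 3 counts, which is 0.0312 to 0.0808 CPM, and such floors cover counting error only. Over all genes 869 rose and 764 fell. Of the hormone receptor and HER2 genes, PGR had 0 counts in every library, ESR1 lay between 0.955 and 2.32 CPM in resistant and 0.738 and 4.55 CPM in control libraries, and ERBB2, which encodes HER2, was detected at 93.5 to 117 CPM in resistant and 106 to 138 CPM in control libraries. The 7 epithelial markers summed to 11330 to 13749 CPM in resistant and 9154 to 11104 CPM in control libraries. Of these 7, EGFR rose. The 8 fibroblast markers summed to 23.8 to 28.6 CPM in resistant and 24.9 to 31.0 CPM in control libraries, most of it COL1A1, with THY1 and LUM at 0. The 5 leukocyte markers summed to 9.30 to 16.0 CPM in resistant and 6.59 to 18.7 CPM in control libraries, most of it CD14.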

How the data were processed

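Counts per Entrez gene of 6 libraries were used as deposited and had not been normalised by the authors. Per the labels' protocols, Kapa RNA HyperPrep libraries were made from 100 ng of RNA and captured with Twist exome probes. The submitters' processing notes name Trimmomatic 0.38, STAR 2.7.8a, featureCounts of Subread and GRCh38. The annotation and strand setting are not stated in the sources read, so overlapping genes and close paralogues could exchange reads.

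RefSeq names matched 27745 of 28395 IDs. Genes were filtered with filterByExpr, scaled by TMM and tested with edgeR 4.0.16 in R 4.3.3 (robust quasi-likelihood, batch and group as terms, 3 residual degrees of freedom), with adjustment over 13950 genes. CPM are TMM-scaled, and log2 CPM use a prior count of 2. Exon and coding lengths are unions over GENCODE 29 basic transcripts. Depth ranged from 37889818 to 93680129 counts. Within-group pairs of libraries differed beyond sampling error (chi-square statistic over its degrees of freedom 70.0 to 215).

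The members and lists were chosen with earlier results of these data known. Named were the 10 genes, up to 4 risen and 4 fallen members per list averaging 1 CPM or more, the most abundant member where none passed, the 2 genes nearest to a member and its direct neighbours. TEAD2, AMOT and the neighbours of pathway genes were named after their values were seen. Deviations of same-numbered replicates from their group means correlated across genes at 0.729, 0.143 and 0.155. The batch that they share enters these values. Within 2021 the difference of replicates 2 and 3 correlated at -0.361 between the lines. The replicate block is printed where it ends a call. Crossed pairs of the 2021 libraries had higher correlations, 0.570 between resistant 3 and control 2 and 0.477 between resistant 2 and control 3, so which libraries pair is uncertain. Alternatives were 2 other scalings, 2 other filters, DESeq2 1.42.0, limma voom (limma 3.58.1), a fit lacking batch, the replicate block, 2021 libraries only and omission of each library. The test was checked on simulated counts with 200 changed genes.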

Additional observations from a re-analysis of the deposited data

How the results depend on the processing

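Of the 160 values of the 10 genes under 16 alternatives, 156 kept their direction and their side of the threshold. The number of the 10 genes called was 0 in the analysis as reported and under 14 alternatives, leaving out each library included (0 to 0). It was 1 with no filter on low counts, where TEAD1 passed. A block with replicate numbers crossed within 2021, chosen after seeing the data because the difference of replicates 2 and 3 correlated at -0.361 between the lines, also called 1 of the 10, CCN2, and 2254 of all genes. Under the replicate block by number 0 of the 10 and 1303 genes were called, and of the named calls those of LATS2 and RUNX1 ended, as given above. Over all genes, 1633 calls became 362 without the batch term, 1012 in the 2021 batch alone and 617 to 1985 when 1 library was left out. Upper quartile scaling moved the calls to 951 higher and 636 lower, against 869 higher and 764 lower. The directions of 3 named genes that had not passed turned. Leaving out 1 library gave log2 differences of -0.62 to 2.21 for CCN2, -0.14 to 0.0093 for AMOTL2 and -0.092 to 0.27 for GAS6, which was at -0.067 in the 2021 batch alone. The cause was not tested. Of the 10 named pathway genes that rose or fell, NT5E and WWC3 passed under all 16 alternatives. Without the batch term the other 8 did not pass, with TEAD3 at an adjusted p of 0.0681. Leaving out a library also leaves fewer degrees of freedom. Depth limits AXL most, whose lowest library had 23 counts.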
